A study of Mus musculus with 30 samples.

Results

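Described here are 44 genes of DNA replication, named from textbook knowledge of the replication fork and of the supply of its building blocks. The 44 genes were chosen with earlier results of these data known, so counts of them called do not come from an independent list. Their RNA was measured by sequencing in 4T1-tdTomato cells. The 4T1 line derives from a mammary carcinoma of a BALB/c mouse, and here it is marked by a red fluorescent protein. All 44 names were found in the count table of 49315 genes, each in 1 row, and all 44 were among the 17774 genes tested. The study held 30 libraries in 6 groups of 5. The host was a female BALB/c mouse or a female NSG mouse, a strain without T, B and NK cells, and the tumour line was the same in every group. BALB/c tumours (days 21 and 22) and NSG tumours (day 10) came from 200000 cells placed in the mammary fat pad. The other samples were lung samples after 500000 cells were given by tail vein: BALB/c DTC and NSG DTC (day 7), BALB/c macro-met (days 21 and 23) and NSG macro-met (days 19 and 20). The labels do not expand DTC. Sorting kept living (DAPI-negative) cells with tdTomato and without CD45, the marker of blood cells, so the values describe sorted cells and not whole tissue. Tumours and lung samples differed at once in stage, organ, route and cell number, and the days of tumours and macro-mets differed between strains, so these cannot be told apart. Each library has its own tag in its title, a number followed by letters, but no title states that a tag stands for a separate mouse. In NSG tumours and in BALB/c DTC all 5 tags share 1 number, and its meaning is not given. BALB/c tumours and both macro-met groups were taken on more than 1 day, so their libraries are not all repeats of 1 sample. The p-values measure the spread between libraries, and how much of it is technical was not tested.

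Replication starts at origins, where the origin recognition complex, Cdc6 and Cdt1 load the ring of Mcm2 to Mcm7 onto DNA, a step called licensing. Cdc45, the GINS complex and Mcm10 turn that ring into the moving helicase, DNA polymerase alpha with primase lays down primers, and polymerases epsilon and delta extend them with the clamp Pcna, which the Rfc complex loads. Fen1 and Lig1 finish the lagging strand, Rpa covers single strands, Chaf1a and Chaf1b place histones behind the fork, and ribonucleotide reductase, Tyms and Tk1 provide deoxynucleotides. Many of these genes are known targets of E2F transcription factors, which the RB proteins hold back until a cell commits to S phase, so their messenger RNA is often read as a sign of cycling cells. In bulk RNA, fewer cells in S phase and less RNA of these genes per cell cannot be told apart.

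The letters of E2F sites were searched in the promoters, because most of the genes moved in 1 direction between groups. The window was 250 bases before to 50 bases after the start, from RefSeq (GRCm38.p6), and held 36 of the 44 genes. The 8 others, Gins1, Gins2, Gins4, Mcm4, Pole, Prim2, Rfc2 and Tipin, were not looked at. TTTCCCGC, TTTGGCGC, TTTCGCGC or TTTGCCGC stood on either strand in 14 of 36 genes (38.9%), beside 2.6% of the 27025 genes with a promoter of the same length. In the 250 bases before the start alone the shares were 22.2% and 2.16%. CCAAT, the letters of NF-Y sites, stood in 21 of 36 genes (58.3%), beside 41.1% of all genes. A match is a description of letters and does not show that a factor binds. In Mcm6, Mcm5 and Pola1 the letters lie upstream of the start both in RefSeq and in the GENCODE M21 gene model, and the 160 bases before the RefSeq start of these genes are printed, read 5′ to 3′ on the strand of the gene with the E2F letters in capitals. Overlapping matches run together as 1 block of capitals. Mcm6 and Mcm5 stand for the licensing genes, all 10 of which rose in BALB/c DTC, and Pola1 for the genes that departed from the list.
Mcm6: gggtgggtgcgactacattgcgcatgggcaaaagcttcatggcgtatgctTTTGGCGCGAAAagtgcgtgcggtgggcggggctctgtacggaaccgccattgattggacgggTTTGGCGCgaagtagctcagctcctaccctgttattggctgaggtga
Mcm5: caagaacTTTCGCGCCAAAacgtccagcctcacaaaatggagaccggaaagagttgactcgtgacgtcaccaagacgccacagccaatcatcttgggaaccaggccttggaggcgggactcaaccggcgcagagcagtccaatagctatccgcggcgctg
Pola1: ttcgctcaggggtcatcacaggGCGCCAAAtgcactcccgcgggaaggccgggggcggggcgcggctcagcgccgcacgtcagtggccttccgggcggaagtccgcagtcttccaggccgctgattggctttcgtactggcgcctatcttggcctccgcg
In the order shown, these stretches lie at chr1:128359706-128359865 (minus strand), chr8:75109349-75109508 (plus) and chrX:93632156-93632315 (minus). The median log2 fold change of BALB/c DTC against BALB/c tumours was 1.36 over the 14 genes with a match and 1.64 over the 22 without. That of BALB/c tumours against NSG tumours was -0.84 with a match and -1.03 without. For NSG DTC against NSG tumours the order was the other way, with 0.48 with a match and 0.41 without.

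As a list, the genes were low in BALB/c tumours, intermediate in NSG tumours and in macro-mets, and high in DTC of both strains. The mean log2 CPM of the 44 genes was 4.98 ± 0.22 (SD, n = 5) in BALB/c tumours, where single libraries gave 4.67 to 5.24. NSG tumours gave 5.82 ± 0.11, from 5.67 to 5.93. In DTC the mean was 6.34 ± 0.06 in BALB/c hosts and 6.30 ± 0.13 in NSG hosts, and the lowest DTC library, at 6.15, stood above the highest of every other group. BALB/c macro-mets gave 5.80 ± 0.07 and NSG macro-mets 5.89 ± 0.15. Gene by gene, BALB/c tumours had the lowest mean CPM of the 6 groups for 41 of the 44. The exceptions were Pola1 and Rfc1, lowest in NSG macro-mets, and Pold2, lowest in NSG DTC. The highest mean was in BALB/c DTC for 28 genes, in NSG DTC for 15 and in NSG macro-mets for 1, Rpa1. On the TPM scale, which divides by gene length, Pcna was the most abundant gene over all libraries (mean 409.9 TPM), followed by Pold2 (314.1) and Mcm6 (211.8), and Pola1 (4.49) and Orc1 (5.20) were the least abundant. The summed TPM of the 44 genes was 1636 ± 213 in BALB/c tumours, 2765 ± 286 in NSG tumours, 4110 ± 255 in BALB/c DTC, 4110 ± 276 in NSG DTC, 3018 ± 187 in BALB/c macro-mets and 3284 ± 206 in NSG macro-mets.

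**Figure D1:**
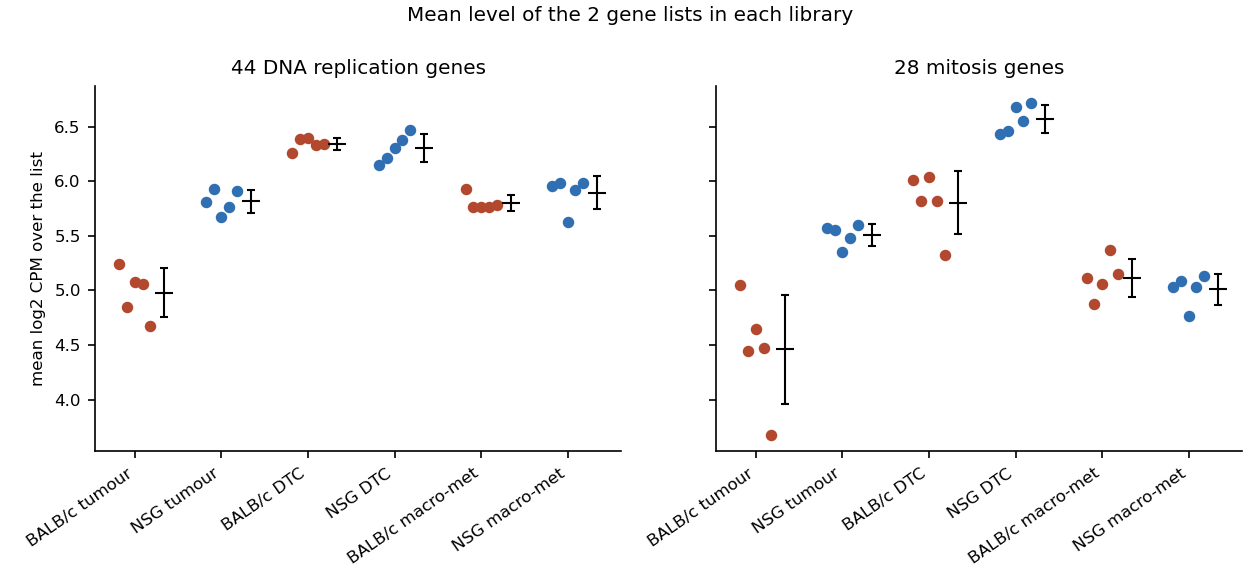
Mean log2 CPM over the 44 replication genes (left) and over 28 mitosis genes (right) for each library, by group, with BALB/c in red and NSG in blue. Points are libraries and the bar at the right of each group is mean ± SD of 5. The replication genes are lowest in BALB/c tumours (4.67 to 5.24) and highest in DTC of both strains, while the mitosis genes are higher in NSG DTC (6.43 to 6.72) than in BALB/c DTC (5.32 to 6.04).

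**Figure D2:**
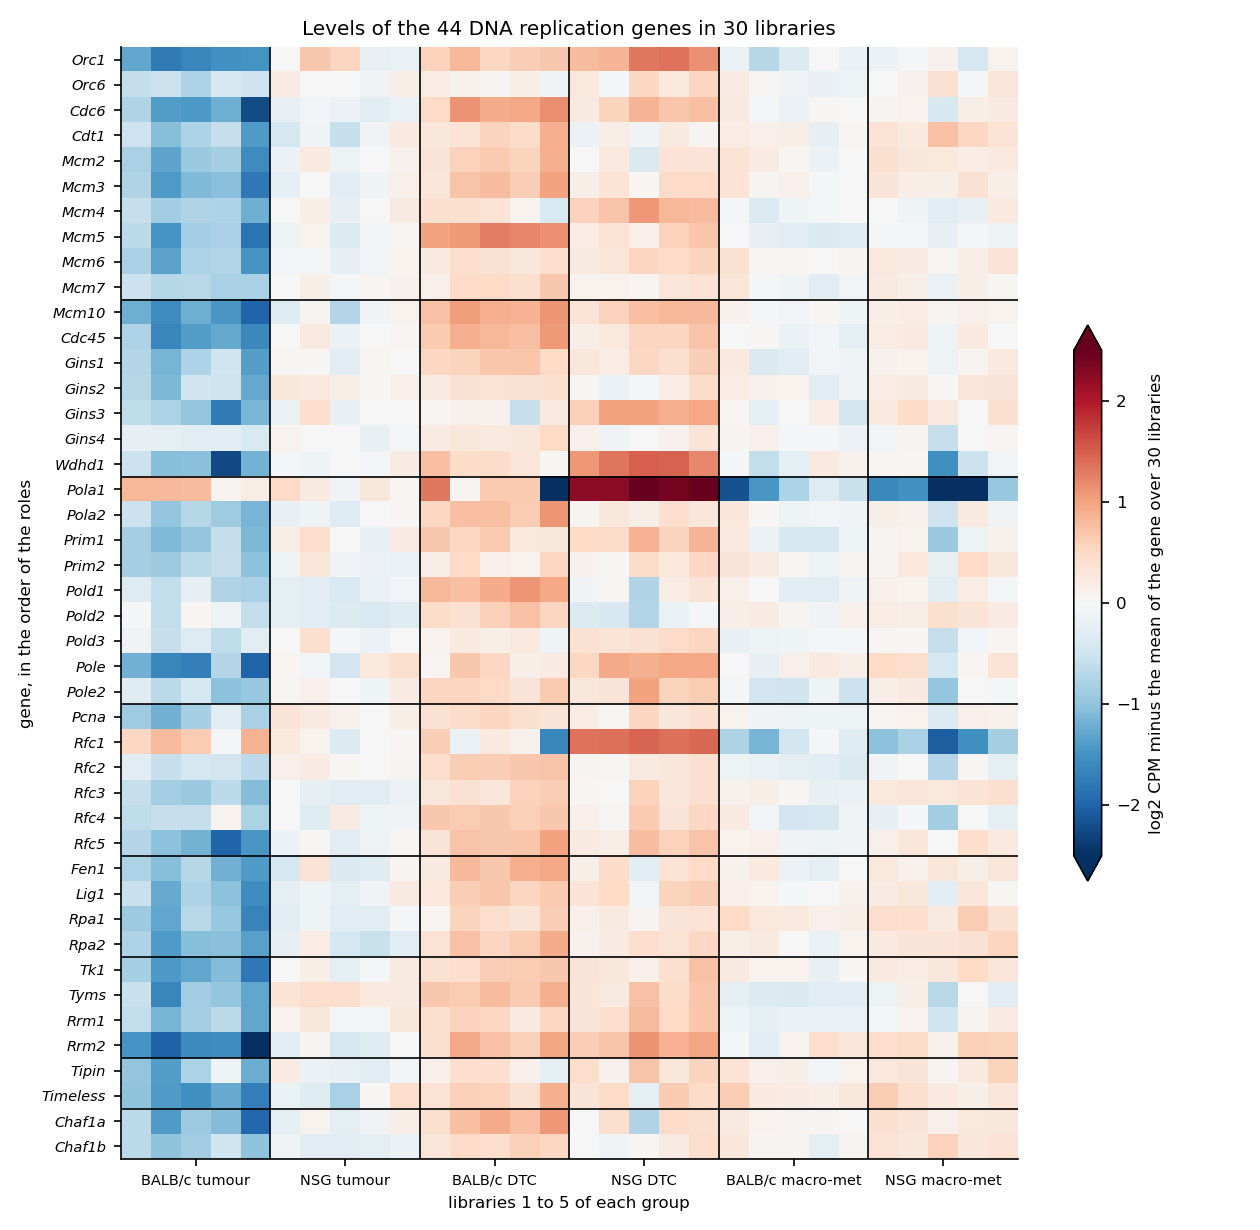
Levels of the 44 genes (vertical axis, by role) in the 30 libraries (horizontal axis, 5 per group), as log2 CPM minus the mean of each gene over all libraries, with red above and blue below it and values past 2.5 shown at the end of the scale. BALB/c tumours are blue and DTC red for nearly all genes, and Pola1 and Rfc1 stand out as red in NSG DTC and blue in macro-mets.

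Total counts ran from 29832098 to 65621525 per library. Markers of the tumour line (Epcam, Krt8, Krt18, Krt7, Krt19 and Cdh1) summed to 4272 CPM or more in every library. Sorted cells also held some RNA of lung epithelium: its 10 markers summed to 68.6 to 3375.5 CPM in BALB/c DTC, with libraries 1 and 2 rich in this RNA, to 17.5 to 54.2 in NSG DTC, to 8.63 to 66.9 in macro-mets and to 1.28 to 4.87 in tumours, where 3 of the 10 were at 0 in every library of each strain. Fibroblast markers, summed over 8 genes, were lower in DTC, where the 44 genes were high: they gave 88.7 to 205.8 CPM in BALB/c DTC and 147 to 201 in NSG DTC, beside 268 to 850.8 in BALB/c tumours, 253 to 358 in NSG tumours, 363 to 574 in BALB/c macro-mets and 471 to 582.5 in NSG macro-mets. Of the 8, Tcf21 was at 0 in every tumour. Endothelium markers gave 39.3 to 452.9 CPM in BALB/c DTC and 50.2 to 73.7 in NSG DTC, beside 7.43 to 27.5 in tumours and 12.3 to 56.5 in macro-mets. Macrophage markers reached 634.8 CPM in BALB/c DTC (median 70.5) and at most 82.9 in any other group. Skeletal muscle markers reached 767 CPM in 1 BALB/c tumour. Neutrophil markers gave 19.2 to 217.7 CPM in BALB/c tumours, where the 44 genes were low, and 8.19 to 15.0 in NSG tumours. They gave 21.5 to 64.6 CPM in BALB/c DTC, 3.73 to 14.7 in NSG DTC and at most 25.2 in macro-mets. Red cell markers reached 65.4 CPM in NSG DTC. Markers of T and NK cells summed to at most 2.24 CPM and of B cells to at most 4.42 CPM in any library. The part of such RNA in the results was not tested beyond fits without the lung-rich libraries and with lung epithelium and endothelium markers as a covariate.

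From tumour to DTC in BALB/c hosts, nearly all genes of the list rose. Of the 44 genes, 42 were called higher and 0 lower, beside 20.4% of all genes tested called higher and 21.0% called lower. The median log2 fold change was 1.42, and -0.09 over all genes. Rrm2 rose most (2.60 ± 0.21, SE), followed by Mcm10 (2.41 ± 0.14), Cdc6 (2.29 ± 0.18), Mcm5 (2.21 ± 0.16) and Orc1 (2.18 ± 0.19). Among the called genes the smallest rises were those of Pold3 (0.50 ± 0.12), Gins4 (0.57 ± 0.10) and Orc6 (0.65 ± 0.11). All genes rose in 6 of the 8 roles, with medians of 1.51 over the 10 licensing genes, 1.47 over the 7 of helicase activation, 1.65 over the 4 of the lagging strand and single strand, 1.77 over the 4 of nucleotide synthesis, 1.48 over the 2 of fork protection and 1.60 over the 2 of chromatin assembly. The 2 genes not called were Pola1 (-0.15 ± 0.45) and Rfc1 (-0.59 ± 0.27, adjusted p = 0.0793). The count was 42 also without BALB/c DTC libraries 1 and 2, which were rich in lung RNA, and 1 gene, Rfc1 (-0.83), was then called lower. Rfc1 was also called lower without BALB/c tumour 4 alone (-0.76, adjusted p = 0.0258) and without BALB/c DTC 1 alone (-0.82, adjusted p = 0.0159).

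The same step was smaller in NSG hosts. Of the 44 genes, 29 were called higher and 0 lower, beside 16.0% and 9.55% of all genes tested, with a median log2 fold change of 0.43 (0.06 over all genes). Pola1 (2.26 ± 0.47), Rfc1 (1.38 ± 0.27), Wdhd1 (1.31 ± 0.24) and Rrm2 (1.04 ± 0.20) rose most. The 15 genes not called held Gins2 (-0.06 ± 0.13), Pold2 (-0.01 ± 0.12), Mcm2 (0.11 ± 0.14), Mcm7 (0.12 ± 0.10) and Pcna (0.14 ± 0.12). The count leaned on single libraries: it was 15 without NSG tumour 3, 15 without NSG DTC 5, 18 without NSG DTC 4 and 19 without NSG tumour 1 or NSG tumour 4. It was 14 without the 4 libraries with the fewest genes detected (BALB/c tumour 4, NSG macro-met 3, NSG tumours 2 and 3). When trends with GC content and gene length were taken out, 17 were higher and 1 lower (Pcna). On log2(TPM + 1), 40 were higher and 0 lower, with a median of 0.63 beside 0.17 over all genes.

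The rise was larger in BALB/c than in NSG hosts for most of the genes, by the interaction term that tests the difference itself. The term was above 0 and called for 35 of the 44 genes and below 0 and called for 2, beside 15.0% and 18.4% of all genes tested, with a median difference of 1.04 log2 units. Cdc45 (1.73 ± 0.19), Mcm5 (1.73 ± 0.21), Chaf1a (1.71 ± 0.26) and Tyms (1.60 ± 0.21) differed most in this direction. Pola1 (-2.40 ± 0.64) and Rfc1 (-1.96 ± 0.38) were called the other way. The 7 genes not called, Orc6, Mcm4, Gins3, Wdhd1, Pold3, Pole2 and Tipin, had differences from 0.13 to 0.64. This term shares its libraries with both steps and with the comparisons of strains. The median log2 fold change of BALB/c against NSG hosts was 0.19 in DTC and -0.91 in tumours. The days of tumours differed between strains, so strain and tumour day cannot be told apart in this term.

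**Figure D3:**
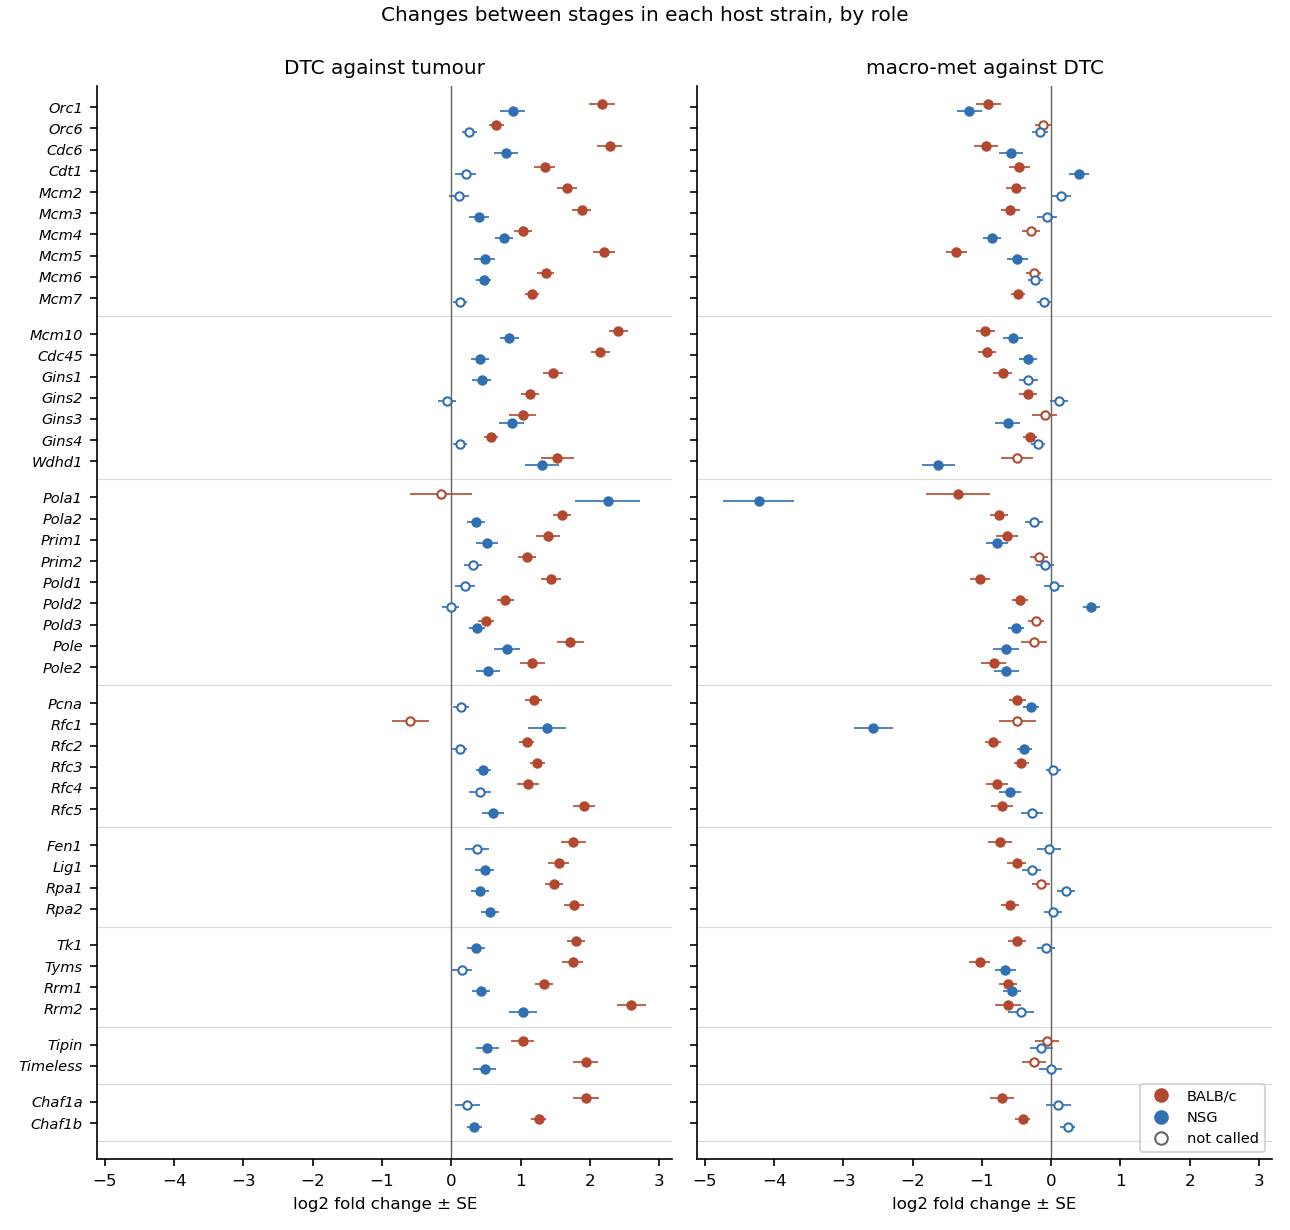
Log2 fold change ± SE of each gene, by role, for DTC against tumour (left) and macro-met against DTC (right), with BALB/c hosts in red and NSG hosts in blue and open points for genes not called. From tumour to DTC, 42 genes rose in BALB/c hosts and 29 in NSG hosts, and from DTC to macro-met 32 and 19 fell. Pola1 and Rfc1 have the largest NSG changes in both panels.

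Among tumours, the genes were lower in BALB/c hosts (days 21 and 22) than in NSG hosts (day 10). Of the 44 genes, 38 were called lower and 0 higher, beside 12.6% and 11.0% of all genes tested, with a median of -0.91 (0.08 over all genes). Orc1 (-1.75 ± 0.19), Rrm2 (-1.68 ± 0.20), Pole (-1.45 ± 0.20) and Tyms (-1.36 ± 0.15) differed most. The 6 genes not called were Gins4, Pola1, Pold1, Pold2, Rfc1 and Rfc4, from -0.41 to 0.57. Strain and day cannot be told apart here.

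No difference between macro-mets of the 2 strains was called for these genes. None of the 44 was called, beside 1.88% of all genes called higher and 0.76% called lower with edgeR, and 5 genes had an unadjusted p under 0.05. DESeq2 and limma-voom also called 0. The log2 fold changes ran from -0.38 (Cdt1) to 0.84 (Pola1) with a median of -0.14, and 38 of 44 were below 0. A fit of these 2 groups alone called 1 gene lower, Rfc3. The SE ran from 0.10 to 0.47.

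From DTC to macro-met the genes fell in part. In BALB/c hosts 32 of 44 were called lower and 0 higher, beside 14.2% and 16.6% of all genes tested, with a median of -0.50, and all 44 estimates were below 0. Mcm5 (-1.37 ± 0.15), Tyms (-1.03 ± 0.15) and Pold1 (-1.03 ± 0.14) fell furthest among genes called under every library left out. In NSG hosts 19 of 44 were called lower and 2 higher, beside 22.4% and 21.3% of all genes tested, with a median of -0.28. Pola1 (-4.22 ± 0.51), Rfc1 (-2.57 ± 0.28), Wdhd1 (-1.63 ± 0.24) and Orc1 (-1.18 ± 0.18) fell furthest, and Pold2 (0.58 ± 0.12) and Cdt1 (0.40 ± 0.15) rose. The call of Cdt1 was lost without NSG DTC 1, 3 or 5 or NSG macro-met 1, 3, 4 or 5 (adjusted p from 0.0515 to 0.16, log2 fold change from 0.29 to 0.41). With the trends of GC content and length taken out, 5 genes were higher in NSG macro-mets (Prim2, Pcna, Rfc3, Rrm1 and Tipin), and neither Pold2 nor Cdt1 was among them. The interaction term for this step was called above 0 for 4 genes (Mcm4, Wdhd1, Pola1 and Rfc1, with estimates less negative in BALB/c hosts) and below 0 for 14, beside 16.6% and 11.6% of all genes tested. The 14 became 5 without BALB/c DTC 5 and 9 without BALB/c DTC 4. Across the 44 genes, which share libraries and are not independent, Spearman's rho between this term and GC content was -0.762. That of the NSG change from DTC to macro-met was 0.676. With the trends of GC content and length taken out, the term was called above 0 for 2 genes and below 0 for 16.

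Macro-mets were above tumours in BALB/c hosts for most genes, and for few genes in NSG hosts. Of the 44 genes, 38 were called higher and 2 lower in BALB/c macro-mets against BALB/c tumours, beside 19.6% and 18.2% of all genes tested, with a median of 0.88. The 2 lower genes were Pola1 (-1.49 ± 0.46) and Rfc1 (-1.08 ± 0.27). In NSG hosts 8 were called higher and 3 lower, beside 16.9% and 13.6% of all genes tested, with a median of 0.18. The 8 were Cdt1, Pold2, Rfc3, Rpa1, Rpa2, Rrm2, Timeless and Chaf1b, from 0.47 to 0.61, and the 3 were Pola1 (-1.96 ± 0.48), Rfc1 (-1.20 ± 0.27) and Tyms (-0.50 ± 0.15). The call of Timeless was lost in 9 of the 10 fits without 1 library of these groups (adjusted p from 0.0638 to 0.225; not without NSG tumour 5), and that of Rrm2 without NSG tumour 1, 3 or 4 or NSG macro-met 4 or 5 (adjusted p from 0.0554 to 0.0727).

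The licensing genes are described first, with CPM in libraries 1 to 5 of each group in order. Orc1 is the largest subunit of the origin recognition complex and lies at chr4:108579423-108614833 (GRCm38, plus strand). Orc1 was at 2.27, 1.63, 1.79, 1.95 and 1.96 CPM in BALB/c tumours, at 8.23, 9.89, 7.96, 8.54 and 8.85 in BALB/c DTC and at 4.94, 3.38, 4.41, 5.5 and 4.94 in BALB/c macro-mets. NSG levels of Orc1 were 5.51, 8.88, 8.05, 4.89 and 4.96 CPM in tumours, 9.65, 10.0, 13.8, 14.2 and 12.2 in DTC and 5.03, 5.44, 5.95, 4.17 and 5.87 in macro-mets. The 5 BALB/c tumours were below all other libraries, and DTC of both strains were above the macro-mets of their strain without overlap. Orc1 rose from tumour to DTC by 2.18 ± 0.19 log2 units in BALB/c hosts (adjusted p = 3.19e-10) and by 0.89 ± 0.18 in NSG hosts (adjusted p = 0.000473), and the difference of these changes was 1.28 ± 0.26 (adjusted p = 0.000253). A noncoding transcript on the other strand shares 10.8% of its exonic bases.

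Mcm6, a subunit of the helicase ring, lies at chr1:128331590-128359664 (minus strand), with 3 matches to E2F letters in the promoter printed above. Mcm6 was at 194, 135, 196, 204 and 123 CPM in BALB/c tumours, at 406, 462, 442, 417 and 457 in BALB/c DTC and at 446, 351, 353, 338 and 355 in BALB/c macro-mets. NSG levels of Mcm6 were 332, 336, 294, 325 and 364 CPM in tumours, 399.6, 419, 494, 474 and 503 in DTC and 411, 395, 346, 375 and 432 in macro-mets. The BALB/c tumours lay below every other library, and BALB/c macro-met 1 and NSG macro-mets 1 and 5 lay inside the range of the DTC of their strain. From tumour to DTC Mcm6 rose by 1.36 ± 0.12 in BALB/c hosts (adjusted p = 2.82e-10) and by 0.47 ± 0.11 in NSG hosts (adjusted p = 0.00274). Cdt1, the loading factor that geminin holds back outside G1, lies at chr8:122568015-122573554 (plus strand). Cdt1 was at 64.7, 44.5, 54.3, 61.8 and 34.9 CPM in BALB/c tumours, at 113, 117, 136, 127 and 173 in BALB/c DTC and at 105, 102, 102, 80.3 and 95.8 in BALB/c macro-mets. NSG levels of Cdt1 were 68.2, 86.8, 62.2, 87.5 and 110.4 CPM in tumours, 84.2, 104, 87.2, 108 and 97.3 in DTC and 119.5, 109, 154, 133 and 117 in macro-mets. BALB/c DTC were above the tumours of both strains, BALB/c macro-mets and NSG DTC without overlap, while NSG DTC overlapped NSG tumours. Cdt1 rose by 1.35 ± 0.15 in BALB/c hosts (adjusted p = 4.51e-08), and the NSG estimate was 0.21 ± 0.15 (adjusted p = 0.334).

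The 6 ring subunits Mcm2 to Mcm7, which enter the complex in equal numbers, did not have equal TPM. Mean TPM ran from 36.1 (Mcm2) to 95.3 (Mcm6) in BALB/c tumours and from 94.2 (Mcm4) to 349.5 (Mcm5) in BALB/c DTC. In NSG DTC the range was 97.0 (Mcm2) to 299 (Mcm6). All 6 rose from tumour to DTC in BALB/c hosts, from 1.03 ± 0.13 (Mcm4) to 2.21 ± 0.16 (Mcm5). Between the strains in DTC, the log2 fold change of BALB/c against NSG was 0.74 ± 0.15 for Mcm5 and -0.61 ± 0.13 for Mcm4, both called. With GC and length trends taken out, Mcm5 was still called (0.55) and Mcm4 was not (-0.13).

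Helicase activation followed a like order of groups with a wide range of sizes. Gins4, a subunit of the GINS complex, lies at chr8:23226616-23237659 (minus strand) and had the highest mean TPM of this role. Gins4 was at 46.2, 45.3, 43.7, 44.4 and 40.7 CPM in BALB/c tumours, at 60.7, 64.5, 63.1, 64.3 and 75.0 in BALB/c DTC and at 55.6, 57.9, 51.9, 51.9 and 47.9 in BALB/c macro-mets. NSG levels of Gins4 were 56.2, 53.6, 52.9, 46.4 and 51.9 CPM in tumours, 57.7, 50.2, 53.3, 56.9 and 66.5 in DTC and 50.7, 55.2, 35.7, 53.4 and 54.6 in macro-mets. BALB/c DTC were above BALB/c tumours and macro-mets without overlap, and the 3 NSG groups overlapped. The rise from tumour to DTC was 0.57 ± 0.10 in BALB/c hosts (adjusted p = 4.39e-05), and the NSG estimate was 0.12 ± 0.10 (adjusted p = 0.4). Wdhd1, which links the helicase to polymerase alpha, lies at chr14:47240944-47276857 (minus strand). Wdhd1 was at 11.2, 7.81, 7.94, 3.39 and 7.21 CPM in BALB/c tumours, at 27.6, 22.3, 22.4, 20.1 and 16.6 in BALB/c DTC and at 15.8, 10.7, 13.9, 19.3 and 17.6 in BALB/c macro-mets. NSG levels of Wdhd1 were 16.0, 15.2, 16.4, 15.9 and 18.7 CPM in tumours, 34.5, 41.3, 45.6, 45.2 and 37.6 in DTC and 16.8, 16.9, 5.62, 11.3 and 15.5 in macro-mets. All 5 NSG DTC libraries were above the other 25, and BALB/c tumour 4 and NSG macro-met 3, both among the 4 libraries with fewest genes detected, were the lowest. Wdhd1 rose by 1.53 ± 0.24 in BALB/c hosts (adjusted p = 8.07e-06) and by 1.31 ± 0.24 in NSG hosts (adjusted p = 0.00016), and the difference of these rises was not called (0.22 ± 0.33, adjusted p = 0.656). Mcm10 (2.41 ± 0.14) and Cdc45 (2.15 ± 0.14), which complete the active helicase, had large rises in BALB/c hosts, and the interaction terms were 1.57 ± 0.20 for Mcm10 and 1.73 ± 0.19 for Cdc45, both called.

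Among the polymerases, Pold2, an accessory subunit of polymerase delta, lies at chr11:5872180-5878292 (minus strand) and has a high GC content (58.6%). Pold2 was at 209, 139, 221, 196 and 140.4 CPM in BALB/c tumours, at 294, 278, 320.1, 354 and 307 in BALB/c DTC and at 238, 245, 223, 199.7 and 233 in BALB/c macro-mets. NSG levels of Pold2 were 182, 177, 169, 163 and 173 CPM in tumours, 167, 162, 129, 190.3 and 206 in DTC and 243, 239, 282, 266 and 246 in macro-mets. BALB/c DTC were above all other groups apart from an overlap with NSG macro-met 3, and NSG DTC overlapped the tumours of both strains. Pold2 rose from tumour to DTC by 0.78 ± 0.12 in BALB/c hosts (adjusted p = 5.12e-06), with -0.01 ± 0.12 in NSG hosts (adjusted p = 0.949). In NSG hosts it rose from DTC to macro-met by 0.58 ± 0.12 (adjusted p = 0.00017), and the value with GC and length trends taken out was 0.16, not called. Of the other polymerase genes, Pole, the catalytic subunit of polymerase epsilon (1.72 ± 0.20), and Pola2, the regulatory subunit of polymerase alpha (1.60 ± 0.13), rose most from tumour to DTC in BALB/c hosts.

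Pola1, the catalytic subunit of polymerase alpha, and Rfc1, the large subunit of the clamp loader, did not move as the partners of their complexes did. Pola1 lies at chrX:93304767-93632155 (minus strand) and has the lowest GC content of the 44 genes (41.7%). Pola1 was at 14.3, 14.1, 13.9, 8.48 and 9.19 CPM in BALB/c tumours, at 20.1, 8.42, 12.6, 12.6 and 0.688 in BALB/c DTC and at 1.79, 2.92, 4.66, 6.46 and 5.46 in BALB/c macro-mets. NSG levels of Pola1 were 11.3, 9.34, 7.61, 9.84 and 8.3 CPM in tumours, 37.9, 38.3, 57.3, 42.2 and 45.9 in DTC and 2.64, 2.81, 1.09, 1.19 and 4.18 in macro-mets. NSG DTC stood above every other library without overlap, and BALB/c DTC ran from the lowest value of all (library 5) to the highest outside NSG DTC (library 1, one of the pair rich in lung RNA). In NSG hosts Pola1 rose by 2.26 ± 0.47 from tumour to DTC (adjusted p = 0.000759) and fell by 4.22 on the log2 scale from DTC to macro-met (adjusted p = 1.67e-07). The partners Pola2 (0.36 ± 0.13), Prim1 (0.52 ± 0.16) and Prim2 (0.32 ± 0.13) had smaller estimates from tumour to DTC in NSG hosts. Rfc1 lies at chr5:65261850-65335670 (minus strand). Rfc1 was at 55.4, 66.6, 59.6, 37.0 and 70.1 CPM in BALB/c tumours, at 59.1, 34.3, 45.3, 41.2 and 12.4 in BALB/c DTC and at 22.6, 17.3, 28.1, 37.9 and 31.0 in BALB/c macro-mets. NSG levels of Rfc1 were 45.9, 41.1, 30.5, 38.6 and 39.1 CPM in tumours, 98.7, 99.3, 105, 99.9 and 104 in DTC and 18.9, 21.9, 9.27, 13.3 and 21.7 in macro-mets. The 5 NSG DTC libraries were again above all others, and NSG macro-mets were below both tumour groups. Rfc1 rose by 1.38 ± 0.27 from NSG tumour to NSG DTC (adjusted p = 0.000434) and fell by 2.57 from there to macro-met (adjusted p = 3.13e-08). Rfc2 to Rfc5 had log2 fold changes of 0.12 to 0.60 in the first of these steps and of -0.59 to 0.03 in the next. By mean TPM, Rfc1 was at 51.3 in NSG DTC, beside 58.7, 66.1, 78.7 and 47.9 for Rfc2 to Rfc5 in order. In NSG macro-mets Rfc1 was at 7.81, beside 40.6, 61.0, 47.3 and 35.6. The NSG changes of both genes were still called with GC and length trends taken out, at 1.34 and -2.81 for Pola1 and 1.00 and -2.14 for Rfc1. The interaction term for the step from tumour to DTC was not called for Pola1 in that fit (-1.03), and was for Rfc1 (-1.46).

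Pcna, the sliding clamp and the most abundant gene of the list, lies at chr2:132249162-132253314 (minus strand). Pcna was at 186, 151, 196, 287 and 196 CPM in BALB/c tumours, at 451, 478, 499.7, 453 and 433 in BALB/c DTC and at 369.8, 327, 315, 322 and 317 in BALB/c macro-mets. NSG levels of Pcna were 429.7, 403, 371, 343 and 384 CPM in tumours, 392, 356, 504, 423 and 459 in DTC and 358, 366, 274, 375 and 370.4 in macro-mets. BALB/c tumours were below all other libraries, save that tumour 4 exceeded NSG macro-met 3, and the 3 NSG groups overlapped. Pcna rose by 1.19 ± 0.12 from tumour to DTC in BALB/c hosts (adjusted p = 6.31e-09), with 0.14 ± 0.12 in NSG hosts (adjusted p = 0.414). The difference between these changes was 1.05 ± 0.17 (adjusted p = 2.66e-05). Pcna has a low GC content (42.3%), and with GC and length trends taken out the NSG value became -0.53, called lower. A processed pseudogene named for Pcna had 2195 counts over all libraries, beside 519825 for Pcna, and reads could be shared between them.

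**Figure D4:**
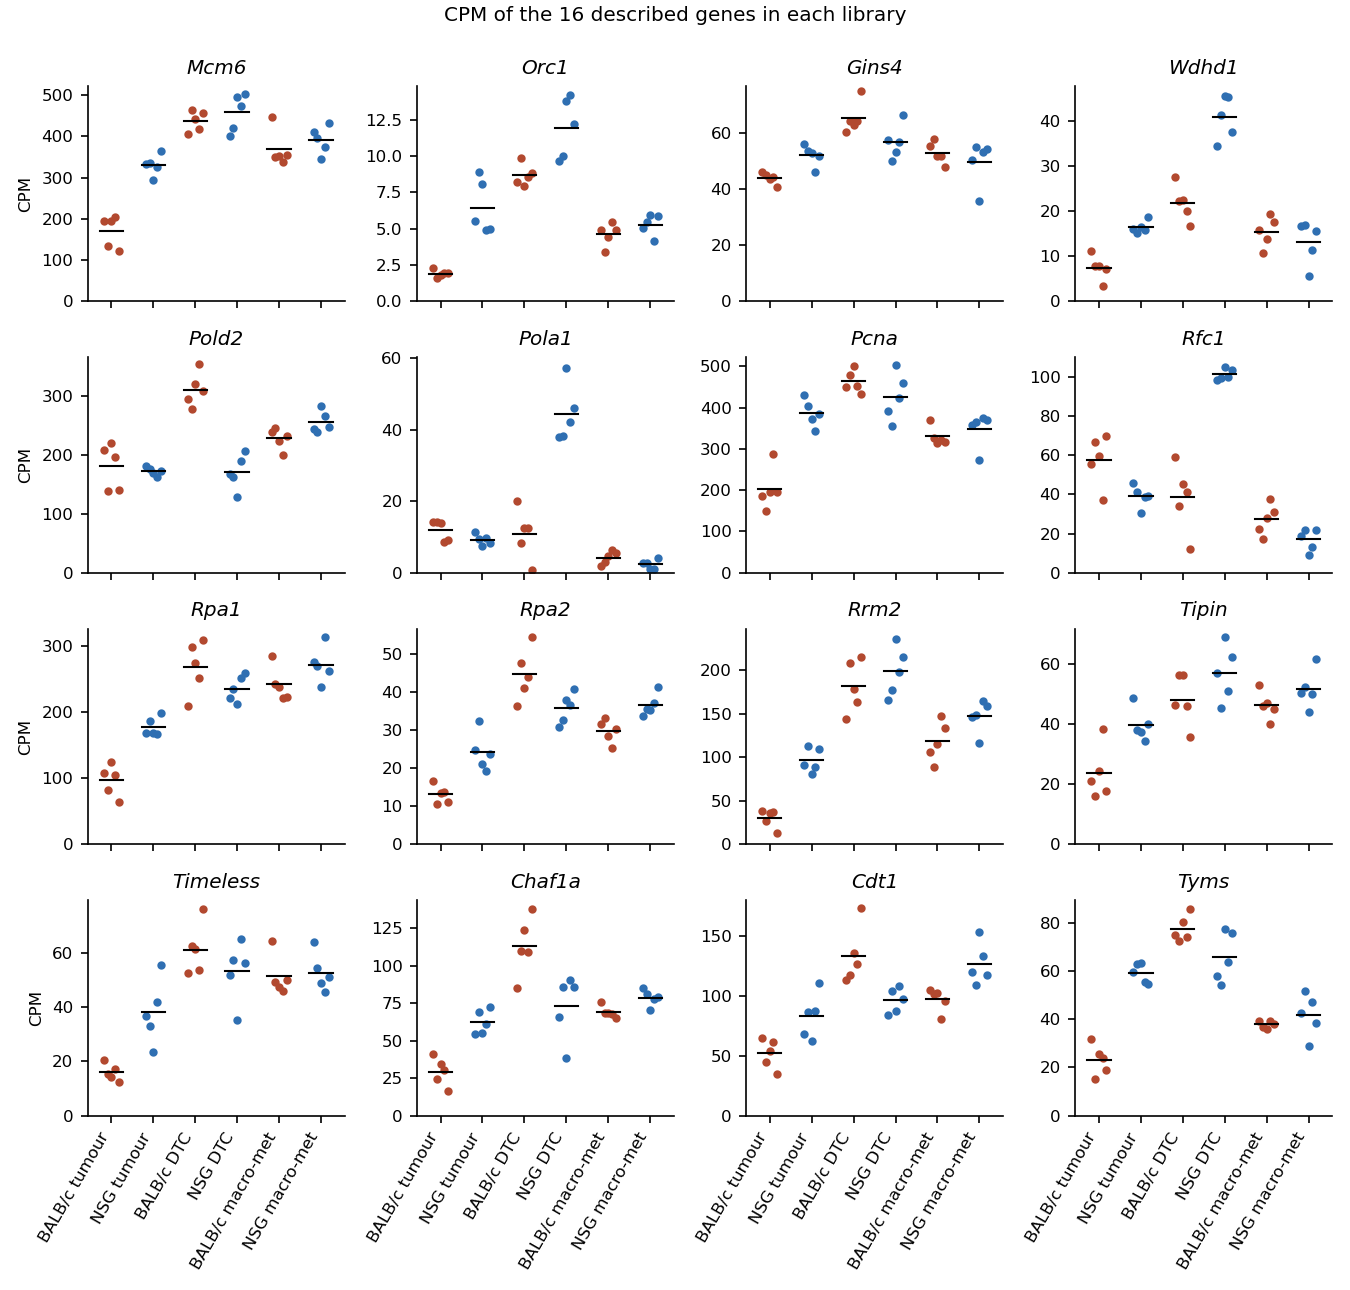
CPM (vertical axis, from 0) of the 16 genes described one by one, in each library (points) of the 6 groups, with a line at each group mean and BALB/c in red and NSG in blue. Orc1, Rrm2 and Timeless have BALB/c tumours below all other libraries, and Wdhd1, Pola1 and Rfc1 have NSG DTC above all others.

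Of the genes for single strands and the lagging strand, Rpa1, the large subunit of the single-strand binding complex, lies at chr11:75298166-75348324 (minus strand). Rpa1 was at 108, 82.1, 124, 105 and 63.8 CPM in BALB/c tumours, at 209.9, 299, 275, 252 and 309 in BALB/c DTC and at 286, 243, 238, 222 and 223 in BALB/c macro-mets. NSG levels of Rpa1 were 168, 187, 168, 168 and 199 CPM in tumours, 221, 235, 213, 252 and 259.5 in DTC and 276, 269.6, 238, 314 and 263 in macro-mets. BALB/c tumours were below all others, and NSG macro-mets overlapped NSG DTC. Rpa1 rose by 1.48 ± 0.13 from tumour to DTC in BALB/c hosts (adjusted p = 4.93e-10). In NSG hosts it was higher in macro-mets than in tumours by 0.61 ± 0.13 (adjusted p = 0.000565). Rpa2, its partner, lies at chr4:132768332-132778752 (plus strand). Rpa2 was at 16.7, 10.7, 13.6, 13.8 and 11.1 CPM in BALB/c tumours, at 36.5, 47.6, 41.2, 44.1 and 54.5 in BALB/c DTC and at 31.7, 33.2, 28.6, 25.4 and 30.3 in BALB/c macro-mets. NSG levels of Rpa2 were 24.7, 32.5, 21.0, 19.4 and 23.8 CPM in tumours, 30.8, 32.7, 38.0, 36.7 and 40.9 in DTC and 33.7, 35.6, 35.4, 37.1 and 41.4 in macro-mets. BALB/c tumours were below all others, and BALB/c DTC were above BALB/c macro-mets without overlap. Rpa2 rose by 1.77 ± 0.14 in BALB/c hosts (adjusted p = 5.88e-11) and by 0.56 ± 0.13 in NSG hosts (adjusted p = 0.00244), with a difference of 1.20 ± 0.19 (adjusted p = 2.01e-05). Fen1 (1.76 ± 0.18) and Lig1 (1.55 ± 0.15), which trim and seal Okazaki fragments, also rose in BALB/c hosts. A gene on the opposite strand shares 78.8% of the exonic bases of Fen1.

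The nucleotide genes held the largest rise of the list. Rrm2, the regulated small subunit of ribonucleotide reductase, lies at chr12:24708241-24714146 (plus strand). Rrm2 was at 38.8, 26.6, 35.7, 36.9 and 12.5 CPM in BALB/c tumours, at 144, 208, 179, 163 and 215 in BALB/c DTC and at 106, 89.0, 116, 148 and 134 in BALB/c macro-mets. NSG levels of Rrm2 were 90.6, 114, 80.5, 88.3 and 109.5 CPM in tumours, 166, 177, 237, 198 and 216 in DTC and 147, 148, 117, 164 and 159 in macro-mets. BALB/c tumours were below all others, BALB/c tumour 5 most of all, and in NSG hosts DTC were above macro-mets and macro-mets above tumours without overlap. Rrm2 rose by 2.60 ± 0.21 from tumour to DTC in BALB/c hosts (adjusted p = 1.07e-10) and by 1.04 ± 0.20 in NSG hosts (adjusted p = 0.000243). Tyms, which makes thymidylate, lies at chr5:30058202-30073617 (minus strand). Tyms was at 31.7, 15.0, 25.5, 23.9 and 19.0 CPM in BALB/c tumours, at 74.9, 72.3, 80.4, 73.9 and 85.8 in BALB/c DTC and at 39.3, 36.9, 36.1, 39.1 and 38.2 in BALB/c macro-mets. NSG levels of Tyms were 59.5, 63.0, 63.4, 55.4 and 54.7 CPM in tumours, 58.0, 54.3, 77.2, 63.7 and 75.9 in DTC and 42.5, 51.7, 29.0, 47.2 and 38.5 in macro-mets. BALB/c macro-mets lay between BALB/c tumours and DTC without overlap, NSG macro-mets were below NSG tumours, and NSG DTC overlapped NSG tumours. Tyms rose by 1.75 ± 0.15 in BALB/c hosts (adjusted p = 2.88e-10), with 0.15 ± 0.15 in NSG hosts (adjusted p = 0.485), and fell from DTC to macro-met by 1.03 in BALB/c hosts (adjusted p = 3.05e-06) and by 0.66 in NSG hosts (adjusted p = 0.000487). Tk1, thymidine kinase, rose by 1.80 ± 0.13 in BALB/c hosts.

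Timeless and Tipin form the complex that steadies a stalled fork. Timeless lies at chr10:128232065-128252941 (plus strand). Timeless was at 20.6, 15.4, 14.2, 17.3 and 12.4 CPM in BALB/c tumours, at 52.6, 62.5, 61.3, 53.5 and 76.2 in BALB/c DTC and at 64.3, 49.1, 47.4, 46.0 and 49.9 in BALB/c macro-mets. NSG levels of Timeless were 36.8, 33.2, 23.4, 41.8 and 55.6 CPM in tumours, 51.8, 57.5, 35.4, 65.2 and 56.3 in DTC and 64.1, 54.3, 48.7, 45.5 and 51.0 in macro-mets. BALB/c tumours were below all others, and the other groups overlapped. Timeless rose by 1.94 ± 0.18 in BALB/c hosts (adjusted p = 1.39e-09). The NSG rise of 0.48 ± 0.17 (adjusted p = 0.0416) was lost without any 1 of NSG tumours 1 to 4 or NSG DTC 1, 2, 4 or 5, with log2 fold changes of 0.32 to 0.49 and adjusted p of 0.0669 to 0.199. Tipin lies at chr9:64281581-64305424 (plus strand). Tipin was at 21.1, 16.0, 24.3, 38.3 and 17.8 CPM in BALB/c tumours, at 46.1, 56.1, 56.2, 46.0 and 35.7 in BALB/c DTC and at 53.0, 45.9, 46.8, 39.9 and 44.8 in BALB/c macro-mets. NSG levels of Tipin were 48.5, 38.1, 37.2, 34.4 and 39.9 CPM in tumours, 56.8, 45.4, 68.9, 50.9 and 62.1 in DTC and 50.3, 52.3, 44, 49.8 and 61.5 in macro-mets. BALB/c tumour 4 was inside the range of other groups, and the other 4 BALB/c tumours were below every library outside their group. Tipin rose by 1.03 ± 0.17 in BALB/c hosts (adjusted p = 1.67e-05), and the difference from the NSG change, 0.51 ± 0.24, was not called (adjusted p = 0.0994) but was without BALB/c tumour 4 (0.75, adjusted p = 0.00273).

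Chaf1a, the large subunit of the histone chaperone CAF-1, lies at chr17:56040439-56072289 (plus strand). Chaf1a was at 41.0, 24.4, 34.6, 30.5 and 16.7 CPM in BALB/c tumours, at 85.4, 109.6, 124, 109 and 138 in BALB/c DTC and at 75.6, 68.8, 68.2, 68.1 and 65.2 in BALB/c macro-mets. NSG levels of Chaf1a were 54.4, 69.2, 55.2, 61.1 and 72.4 CPM in tumours, 65.6, 86.0, 38.7, 90.6 and 85.7 in DTC and 85.2, 80.9, 70.7, 78.0 and 78.9 in macro-mets. BALB/c tumours were below all others, save that NSG DTC 3 was under the highest of them, and BALB/c DTC were above both macro-met groups. Chaf1a rose by 1.94 ± 0.19 in BALB/c hosts (adjusted p = 3.39e-09), with 0.23 ± 0.18 in NSG hosts (adjusted p = 0.387) and a difference of 1.71 ± 0.26 (adjusted p = 1.39e-05). A gene on the opposite strand, Ubxn6, shares 52.5% of the exonic bases of Chaf1a, and with the strand setting not given, reads of the 2 genes there cannot be told apart. Chaf1b, its partner, rose by 1.26 ± 0.11. In all, 17 of the 44 genes share exonic bases with another gene, 7 of them at 10% or more (Orc1, Gins2, Rfc2, Rfc4, Rfc5, Fen1 and Chaf1a). Fen1 shares 78.8% with Gm10143, which had 412 counts over all libraries beside 21057 for Fen1. Gins2 shares 67.3% with Gse1 (55539 counts beside 80388 for Gins2). Gm10143 and Gse1 lie on the opposite strand, so the limit given for Chaf1a holds for Fen1 and Gins2 too.

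Between the strains in DTC, taken at day 7 in both, the genes split. Of the 44, 13 were called higher in BALB/c DTC and 7 lower, beside 17.1% and 21.7% of all genes tested, with a median of 0.19. The 13 were Cdt1, Mcm2, Mcm3, Mcm5, Mcm7, Cdc45, Pola2, Pold1, Pold2, Rfc2, Fen1, Chaf1a and Chaf1b, led by Pold1 (0.94 ± 0.14) and Pold2 (0.86 ± 0.12). The 7 were Orc1, Mcm4, Gins3, Wdhd1, Pola1, Pole and Rfc1, led by Pola1 (-2.03 ± 0.46) and Rfc1 (-1.40 ± 0.27). The split went with GC content: across the 44 genes, which share libraries and are not independent, Spearman's rho between the log2 fold change and GC content was 0.749. The libraries themselves differed in this respect, since the rank correlation of all genes' departures with GC content ran from -0.613 to -0.328 in NSG DTC and from -0.101 to 0.455 in BALB/c DTC. With GC and length trends taken out per library, rho was 0.028 and the split was 16 higher and 3 lower (Gins3, Pola1 and Rfc1). The offsets are fitted to remove such trends, so the lower rho is no separate result. In the edgeR fit of counts without these offsets, leaving out BALB/c DTC 5 gave 8 higher in place of 13. On log2(TPM + 1), where the median of all genes was -0.15, the split was 3 higher (Mcm5, Pold1 and Pold2) and 13 lower. Pold1, Pold2 and Mcm5 were thus called higher, and Pola1, Rfc1 and Gins3 lower, in all 3 of these scalings. The split of the list as a whole changed with the scaling.

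**Figure D5:**
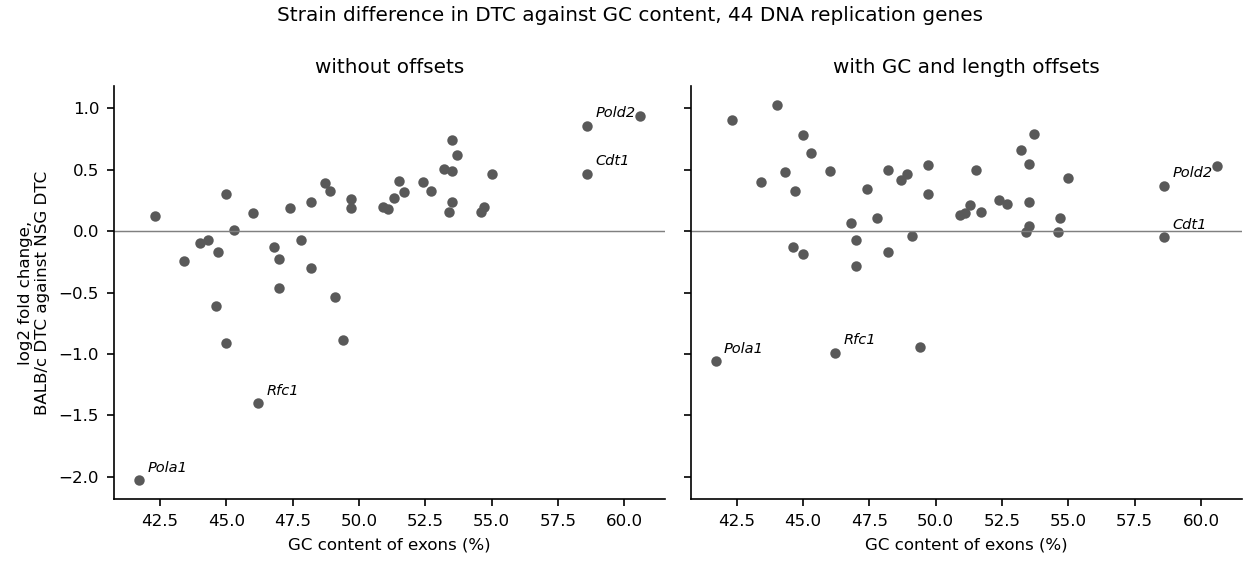
Log2 fold change of BALB/c DTC against NSG DTC (vertical axis) and GC content of exons in percent (horizontal axis) for the 44 genes. GC content was pooled over all transcripts of a gene. The fit is without offsets (left) and with offsets for GC content and length (right). The points rise from left to right without offsets (rho 0.749) and not with them (rho 0.028), and Pola1 and Rfc1 lie lowest without offsets. The offsets are fitted to remove such a trend.

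The other genes of replication and of its control moved with the 44 in some comparisons and not in others. Of 55 further replication genes in 4 lists, 38 were called higher and 6 lower in BALB/c DTC against tumours, beside 20.4% and 21.0% of all genes tested, with a median of 0.82, and Gmnn, the inhibitor of Cdt1 (1.77 ± 0.12), had the smallest adjusted p. In NSG hosts 32 rose and 0 fell, beside 16.0% and 9.55%, with a median of 0.45, and Atad5, which unloads Pcna (2.87 ± 0.39), and Dbf4, the partner of the kinase Cdc7 (1.17 ± 0.20), were among those with the smallest adjusted p. From NSG DTC to macro-met, 27 of the 55 were called lower and 4 higher, beside 22.4% and 21.3%, and Atad5 fell by 4.12. Between DTC of the strains, 14 of the 55 were higher in BALB/c hosts and 20 lower (median -0.11), beside 17.1% and 21.7%, where the 44 gave 13 and 7. In NSG macro-mets against tumours 6 were higher and 14 lower, beside 16.9% and 13.6%, where the 44 gave 8 and 3. The strain difference from DTC to macro-met was above 0 for 14 and below 0 for 7, beside 16.6% and 11.6%, where the 44 gave 4 and 14. These differences between the lists were not tested. Of 18 E2F and RB regulators, 11 were called higher and 2 lower in BALB/c DTC against tumours, beside the same 20.4% and 21.0%. The 2 lower were Tfdp2 (-1.12 ± 0.18), a partner of E2F factors, and Rbl2 (-1.14 ± 0.13), a relative of RB found in resting cells. In NSG hosts 9 regulators rose and 0 fell, beside 16.0% and 9.55%, with Rbl1, another relative of RB (1.20 ± 0.18), at the smallest adjusted p.

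The 28 mitosis genes were compared as the next phase of the cycle. From tumour to DTC 23 were called higher in BALB/c hosts and 16 in NSG hosts, and 0 lower in either, with medians of 1.34 and 0.51, beside 20.4% and 16.0% of all genes called higher and 21.0% and 9.55% called lower. In BALB/c DTC against NSG DTC 0 were higher and 11 lower (2 and 6 with GC and length trends taken out), beside 17.1% and 21.7% of all genes, where the replication genes gave 13 and 7. Per library, the mean log2 CPM of the replication genes minus that of the mitosis genes was 0.25 to 1.02 in BALB/c DTC and -0.38 to -0.17 in NSG DTC, and 0.19 to 0.99 in BALB/c tumours, 0.24 to 0.38 in NSG tumours, 0.39 to 0.88 in BALB/c macro-mets and 0.85 to 0.93 in NSG macro-mets. NSG DTC were thus the only group in which every library had the mitosis list above the replication list. The median GC content was 49.2% over the replication genes and 48.0% over the mitosis genes, and its part in this difference was not tested.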

How the data were processed

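RNA of sorted tdTomato-positive cells was sequenced in 30 libraries, 5 in each of 6 groups. Reads were trimmed with Trimmomatic (0.36) and aligned with STAR (2.5.2b) to GRCm38 (mm10), per the submitters' processing notes. The authors deposited raw read counts per gene, and they also deposited TPM, which divide by gene length and sum to a fixed total. The counting tool, its strand setting, the annotation and the lengths behind the TPM are not given in the sources used here. Of 49315 genes, 49056 had an ID in GENCODE M21, from which GC content, exonic length and positions were taken. GC content was counted over all transcripts of a gene pooled, so a base in several transcripts counts several times.

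The counts were fitted with edgeR (4.0.16, R 4.3.3): genes were filtered by group, scaled by TMM (factors 0.922 to 1.07) and tested with the robust quasi-likelihood F test, with 1 mean per group over all 30 libraries (24 residual degrees of freedom). P-values were adjusted by Benjamini-Hochberg over 17774 genes, which hold 99.969% of the counts, and a gene was called at an adjusted p under 0.05. Each SE is the log2 fold change divided by the square root of F. The list means are means of log2(CPM + 1). Log2 CPM with a prior count of 2 was used only for the trends with GC content and length. Alternatives were DESeq2 (1.42.0), limma-voom (3.58.1), RLE scaling, no filter, log2(TPM + 1) and log2(TPM + 0.1), offsets for GC content and length, a marker covariate, only the groups compared, and fits without single libraries, 2 lung-rich or 4 gene-poor libraries. Replicate numbers follow accession order and pair nothing. No 2 libraries held identical counts. The 44 genes, their roles and the other lists were chosen with earlier results of these data known. Values in every library are given, in each role, for the gene with the highest mean TPM and the gene with the largest range of group means, and for genes called against most others in a comparison of stages.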

Additional observations from a re-analysis of the deposited data

Results flagged for a closer look

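Among 108 groups of 5 values, 9 held a library far from the other 4 by Dixon's criterion (gap over range above 0.71), where chance gives about 1 in 20. BALB/c macro-met 1 was high in Mcm6 (446 CPM, group median 353), Pcna (369.8, median 322.5) and Timeless (64.3, median 49.1) and in the mean log2 CPM of the 44 genes (5.93, median 5.76). NSG macro-met 3, one of the 4 libraries with fewest genes detected, was low in Gins4 (35.7 CPM, median 53.4) and Pcna (274, median 366), in the mean of the 44 genes (5.63, median 5.96) and in that of the mitosis genes (4.77, median 5.03). BALB/c DTC 5 was high in Gins4 (75.0 CPM, median 64.3).

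The change from tumour to DTC differed between strains, by the interaction term, for 35 genes above 0 and 2 below. Strain and tumour day cannot be told apart in it. The term was 0.89 for Mcm6, 1.28 for Orc1, 1.14 for Cdt1, 0.45 for Gins4, 0.80 for Pold2, 1.05 for Pcna, 1.07 for Rpa1 and 1.20 for Rpa2. It was 1.55 for Rrm2, 1.60 for Tyms, 1.46 for Timeless, 1.71 for Chaf1a, -2.40 for Pola1 and -1.96 for Rfc1. The change from DTC to macro-met differed for 4 genes above 0 and 14 below. Its term was 1.13 for Wdhd1, 2.87 for Pola1 and 2.09 for Rfc1, and -1.03 for Pold2, -0.62 for Rpa2, -0.81 for Chaf1a and -0.85 for Cdt1. The calls of Rpa2 and Chaf1a in this step were lost without BALB/c DTC 5 (-0.50, adjusted p = 0.0522, and -0.69, adjusted p = 0.0615).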

How the results depend on the processing

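With 1 library left out at a time, 5434 of the single-gene results kept their side of the threshold, 46 were newly called, 240 were lost and 0 reversed. Under the other settings, 5355 kept it, 237 were newly called, 202 were lost and 14 reversed. A reversed result had the opposite sign to the edgeR fit of all 30 libraries, with a call in at least either fit. It need not be called in both, and some of these values are near 0. All 14 arose with offsets for GC content and length, and the cause was not tested. From tumour to DTC in NSG hosts they were Pcna (-0.53), Rrm1 (-0.34) and Tipin (-0.07). From DTC to macro-met in NSG hosts they were Cdt1 (-0.10), Prim2 (0.55), Pold1 (-0.48), Pole2 (0.10), Pcna (0.82), Rfc4 (0.09), Rrm1 (0.62) and Tipin (0.82). The others were Cdt1 (-0.05) and Rrm1 (1.03) between DTC of the strains and Mcm4 (-0.05) in the strain difference from DTC to macro-met. Counts moved by over 1.5 times as follows. In BALB/c DTC against tumours 1 gene was lower with DESeq2, limma-voom, the 3 TPM settings, the marker covariate, without the 2 lung-rich and without the 4 gene-poor libraries (0 to 1 with 1 library left out). In BALB/c macro-mets against tumours 1 was lower with offsets. In NSG DTC against tumours the genes higher were 17 with offsets and 14 without the gene-poor libraries (15 to 27 with 1 left out), and 1 was lower with offsets. In NSG macro-mets against DTC 5 were higher with offsets and 1 with the TPM settings or without the gene-poor libraries (1 to 2 with 1 left out). In NSG macro-mets against tumours 13 were higher with the TPM filter, 13 with the covariate and 5 without the gene-poor libraries. With only the groups compared, 1 gene was higher in BALB/c than NSG tumours and 1 lower in BALB/c than NSG macro-mets. Between DTC 3 were higher and 13 lower with the TPM settings and 3 lower with offsets (8 to 16 higher with 1 left out). In the strain difference from tumour to DTC 1 was lower with offsets. In that from DTC to macro-met 2 were higher with offsets and 5, 4 and 5 lower with log2(TPM + 1), log2(TPM + 0.1) and the TPM filter (5 to 16 with 1 left out). The promoter share was 22.2% in the bases before the start. The median of all genes shifted by up to 0.279 (log2(TPM + 0.1), NSG DTC against tumours). No paired analysis was possible because the replicate numbers follow accession order.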
